A study of Mus musculus with 8 samples.

Results

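Brown adipose tissue (BAT), the fat depot that burns fuel to make heat, was profiled by bulk RNA-seq in wild-type (WT) and db/db mice, and the 10 genes described here are the hypoxia-inducible factor (HIF) subunits Hif1a and Epas1, the prolyl hydroxylases Egln1 and Egln3, and the hypoxia targets Vegfa, Slc2a1, Ndrg1, Adm, Ddit4 and Ankrd37. They were taken by gene symbol, which found all 10 of them among the 31053 genes of the count table. The rule that picks them uses no measured value, but the set was drawn up with earlier results of these data known. The 8 libraries came from 4 WT and 4 db/db males at 8 weeks of age, given normal diet and fasted before the tissue was taken. The labels give the strain C57BL6/J for both genotypes, while the methods name C57BL6/J from Charles River for WT and B6.BKS(D)-Leprdb/J from Jackson for db/db, and the resources table lists C57BL/6J from Jackson too, so the supplier of the WT mice is not settled. The db/db mice lack a working leptin receptor in every cell, eat in excess and are obese and diabetic. Loss of leptin signalling and obesity therefore cannot be told apart in these groups.

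In cells with enough oxygen, EGLN enzymes hydroxylate the HIF alpha subunits HIF1A and EPAS1 (HIF2A), the VHL ubiquitin ligase binds the hydroxylated protein, and it is degraded. When oxygen is scarce the alpha subunits escape, pair with ARNT and switch on genes for glucose uptake, glycolysis and vessel growth through the hypoxia response element, whose core is often written ACGTG. Because this control acts on protein, the HIF mRNA level need not follow HIF activity. In BAT, a densely vascularised tissue, VEGFA made by brown adipocytes signals to the capillary endothelium, and its gene also responds to adrenergic stimulation and to the coactivator PGC-1alpha.

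A WT library held between 2374079 and 2615009 counts in all, a db/db library between 2382722 and 3240074. Levels are CPM, the count of a gene as a share of its library put on a common scale, set by the counts of the tested genes and the TMM factor of each library, and 3 counts, taken as the detection floor, amount to between 0.902 and 1.33 CPM, which covers counting error only. One label field names the stromal vascular fraction and another the whole tissue, and the adipocyte genes Ucp1 and Cidea, at 2248 and 4356 CPM in WT, were abundant in these libraries. The marker lists of other cell types differed between the genotypes. The 15 macrophage markers summed to between 198 and 263 CPM in WT and between 952 and 1703 CPM in db/db, and the 26 skeletal muscle markers to between 597 and 2196 CPM in WT and between 2959 and 15362 CPM in db/db, where db/db replicate 1 was highest. The 13 white adipocyte markers summed to between 1576 and 2500 CPM in WT and between 4021 and 5479 CPM in db/db. Of the 11 tested, 6 were higher and 1 lower, beside 15.8% and 11.9% of all genes tested. The 9 blood cell markers overlapped, at 3109.9 to 8728 CPM in WT and 6493 to 17034 CPM in db/db. The part of macrophages, white adipocytes and blood cells in the results below was not tested. The 18 endothelial markers summed to between 681 and 796 CPM in WT and between 565 and 645 CPM in db/db.

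The sequence before the gene start is shown for Vegfa, for Adm, which had the largest rise among the 10 genes, and for Egln3, whose window holds the core motif. Vegfa was taken as the fall that more alternative fits kept, 16 of 17, while Slc2a1, which fell slightly more, passed in 5 of 16. RefSeq promoter windows on GRCm38.p6 (the mm10 build) had an entry for 8 of the 10 genes, and Epas1 and Ndrg1 had none. The 250 bases upstream of the start are printed 5′ to 3′ on the strand of the gene, with ACGTG in capitals.
Vegfa, chr17:46032378-46032627, minus strand: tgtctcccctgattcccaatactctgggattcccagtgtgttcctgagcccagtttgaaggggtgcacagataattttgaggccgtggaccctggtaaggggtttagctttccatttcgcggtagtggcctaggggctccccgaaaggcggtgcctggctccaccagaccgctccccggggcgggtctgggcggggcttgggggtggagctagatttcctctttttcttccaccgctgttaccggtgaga
Adm, chr7:110627407-110627656, plus strand: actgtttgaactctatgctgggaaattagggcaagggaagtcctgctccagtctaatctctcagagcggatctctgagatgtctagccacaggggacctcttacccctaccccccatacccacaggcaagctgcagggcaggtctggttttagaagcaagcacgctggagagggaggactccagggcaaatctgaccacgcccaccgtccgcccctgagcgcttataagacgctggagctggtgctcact
Egln3, chr12:54203875-54204124, minus strand: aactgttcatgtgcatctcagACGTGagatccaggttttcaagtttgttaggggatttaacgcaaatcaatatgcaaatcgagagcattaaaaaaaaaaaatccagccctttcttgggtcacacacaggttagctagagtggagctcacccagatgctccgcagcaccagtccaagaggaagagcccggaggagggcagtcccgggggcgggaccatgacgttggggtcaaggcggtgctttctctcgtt

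ACGTG, searched on both strands, occurred in 16.6% of the 32851 windows of this length in the table. Of the 9 windows of the 8 genes, 7 held it, on 1 or more occasions. It began 36 bases before the start of Slc2a1, 68 before that of Egln1, 187 before that of Ddit4 and 229 before that of Egln3. Hif1a held 3 matches, of which a pair overlap in the palindrome CACGTG, and Ankrd37 held 2. The window of the outermost Vegfa start and that of Adm held none, while a second Vegfa window held 1. By the GENCODE gene bounds that second Vegfa window and those of Hif1a and Ankrd37 lie inside the gene, and those of Slc2a1, Egln1 and Ddit4 reach into it. Of the genes with the letters in this window, Egln1 was called higher and Slc2a1 lower in the test below, both close to the threshold. Vegfa, which fell, held them in its second window only. No match says only that the letters are not in these 250 bases.

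Of the 10 genes, 9 passed the filter on low counts and were tested with the quasi-likelihood test of edgeR, adjusted over all 9264 genes tested. At an adjusted p of 0.05, Ndrg1, Adm and Egln1 were higher in db/db, Vegfa and Slc2a1 were lower, and Hif1a, Epas1, Egln3 and Ddit4 did not pass. For comparison, 15.8% of all genes tested were higher and 11.9% lower, so that 27.7% passed in either direction. The values of the genotypes did not overlap in 4 of the 9 genes, against 28.1% of all genes tested. The median log2 change (db/db over WT) of the 9 was 0.10, that of all genes 0.01. The genes therefore did not move one way, and the differences of Ndrg1, Adm and Vegfa were the ones that most settings kept.

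**Figure D1:**
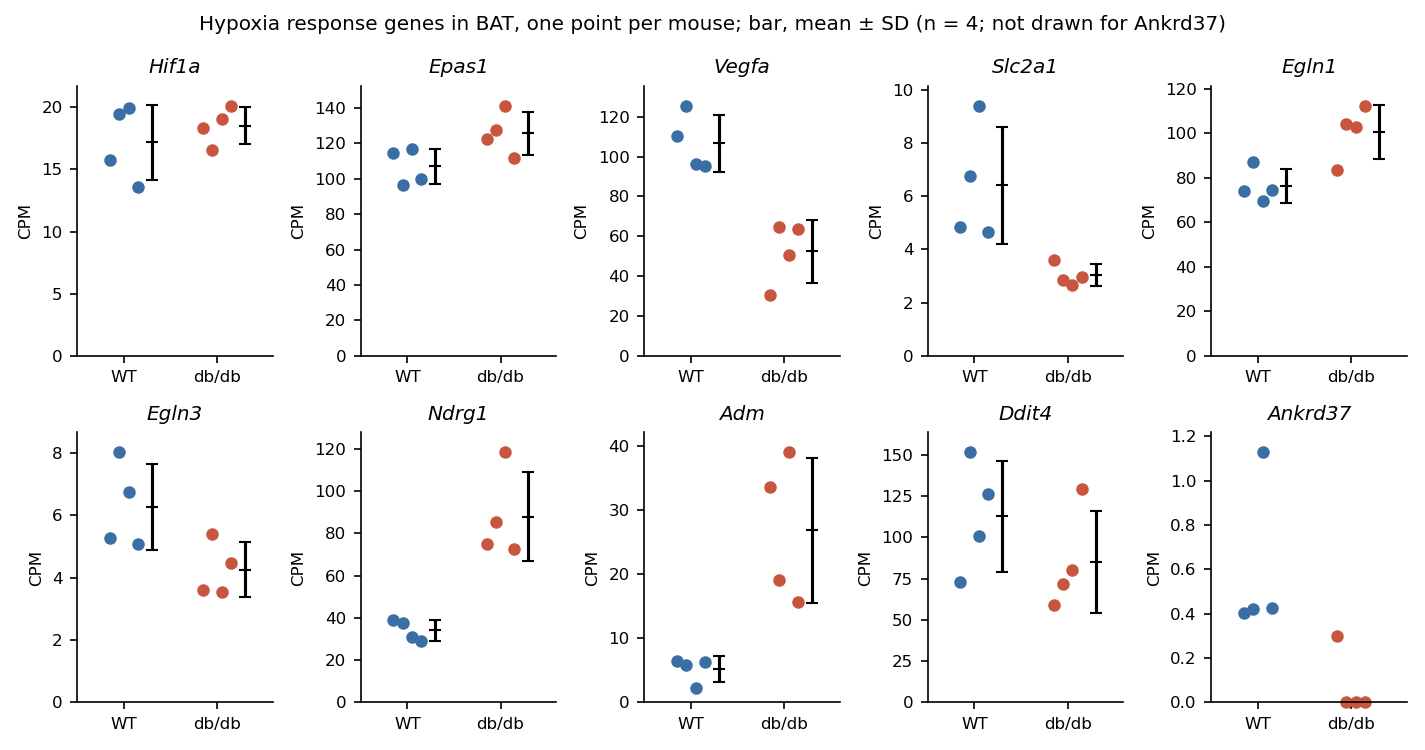
Level of each of the 10 genes in CPM (vertical axes, from 0) in each mouse, with WT in blue, db/db in red, and black bars for the mean and SD of 4 mice. Vegfa and Slc2a1 lie lower and Ndrg1 and Adm higher in every db/db mouse than in any WT mouse, and the points of Hif1a overlap.

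The HIF alpha subunits came first, since they head the pathway. Hif1a (ENSMUSG00000021109, chromosome 12, 73901375 to 73947530, mm10) stood at 15.8, 19.4, 19.9 and 13.6 CPM in the WT libraries and at 18.4, 16.5, 19.1 and 20.1 CPM in the db/db libraries. The ranges overlapped, with 1 db/db library above every WT library. Its log2 change was 0.10 (SE 0.21, n = 4 each; edgeR adjusted p = 0.76), a difference smaller than the spread between replicates. Hif1a shares exon sequence with Gm49321 on its own strand and with Gm15283 on the other, so its counts are uncertain.

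Epas1 (ENSMUSG00000024140, chromosome 17, 86753700 to 86833410), the HIF alpha subunit best known from endothelium and fat, had 114.5, 96.6, 116.5 and 99.7 CPM in WT and 122.4, 127.3, 141.0 and 111.6 CPM in db/db. Of the db/db libraries, 3 lay above all WT libraries, but the rise was not called (log2 change 0.23, SE 0.13, n = 4 each; edgeR adjusted p = 0.208). The ratio of Hif1a to Epas1 within a library averaged −2.60 ± 0.26 in WT and −2.71 ± 0.21 in db/db on the log2 scale (SD of 4 mice each). It differed by −0.11, within the replicate spread (exact two-sided permutation test, p = 0.486, adjusted over 2 ratios 0.486, where the smallest possible p is 0.0286).

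Among the oxygen-sensing hydroxylases, Egln1 and Egln3 went opposite ways in their means. Egln1 (PHD2, the main HIF hydroxylase; ENSMUSG00000031987, chromosome 8, 124908587 to 124949324) had 74.1, 87.4, 69.5 and 74.7 CPM in WT against 83.6, 104.0, 102.8 and 112.3 CPM in db/db. All db/db libraries but replicate 1 lay above the WT range. The rise was 1.32-fold (log2 change 0.40, SE 0.14, n = 4 each; edgeR adjusted p = 0.0418), close to the threshold, and it passed in 7 of 17 alternative fits, with an adjusted p from 0.0196 to 0.156. The call was lost with DESeq2 and when any one library other than WT replicate 2 and db/db replicate 1 was left out (up to 0.122). Egln3 (PHD3, itself a hypoxia target; ENSMUSG00000035105) had 5.26, 8.02, 6.76 and 5.09 CPM in WT and 3.61, 5.41, 3.55 and 4.46 CPM in db/db. With 8 to 19 counts a library its lower mean in db/db was not called (log2 change −0.55, SE 0.35, n = 4 each; edgeR adjusted p = 0.268). Whether Egln1 and Egln3 differ from each other in their response was not tested.

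Vegfa (ENSMUSG00000023951, chromosome 17, 46016993 to 46032369), which encodes the main growth factor for blood vessels, was at 110.1, 125.3, 96.2 and 95.1 CPM in WT and at 30.7, 64.9, 50.5 and 63.6 CPM in db/db. Every db/db library lay below every WT library, and db/db replicate 1 was lowest. The mean fell from 106.7 ± 14.2 to 52.4 ± 15.9 CPM (SD of 4 mice each), 2.04-fold (log2 change −1.03, SE 0.20; edgeR adjusted p = 0.000715). Without db/db replicate 1 the log2 change was −0.84 and the adjusted p 0.000619. In bulk tissue, fewer cells of a type and less RNA per cell cannot be told apart.

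Skeletal muscle markers moved with this fall. Within db/db the muscle markers summed to 15362, 4251, 6969 and 2959 CPM in replicates 1 to 4, and the library with most muscle RNA had the least Vegfa. Within WT they summed to 597, 1266, 897 and 2196 CPM in replicates 1 to 4, where Vegfa was at 110.1, 125.3, 96.2 and 95.1 CPM. With the muscle score of each library as a covariate, which did not overlap between the genotypes and so takes up part of their difference, Vegfa was 0.45 lower on the log2 scale and was not called (edgeR adjusted p = 0.382). In that fit 7.15% of all genes passed in place of 27.7%. The libraries of the 2 genotypes with the nearest muscle scores, WT replicate 4 and db/db replicate 4, had 95.1 and 63.6 CPM of Vegfa. Muscle RNA and genotype cannot be told apart in full with these 8 libraries. The 16 brown adipocyte markers also moved with Vegfa, summing to between 9871 and 11700 CPM in WT and between 4182 and 7289 CPM in db/db. Of the 13 tested, 9 were lower, beside 11.9% of all genes tested. The part of these markers in the fall of Vegfa was not tested.

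**Figure D2:**
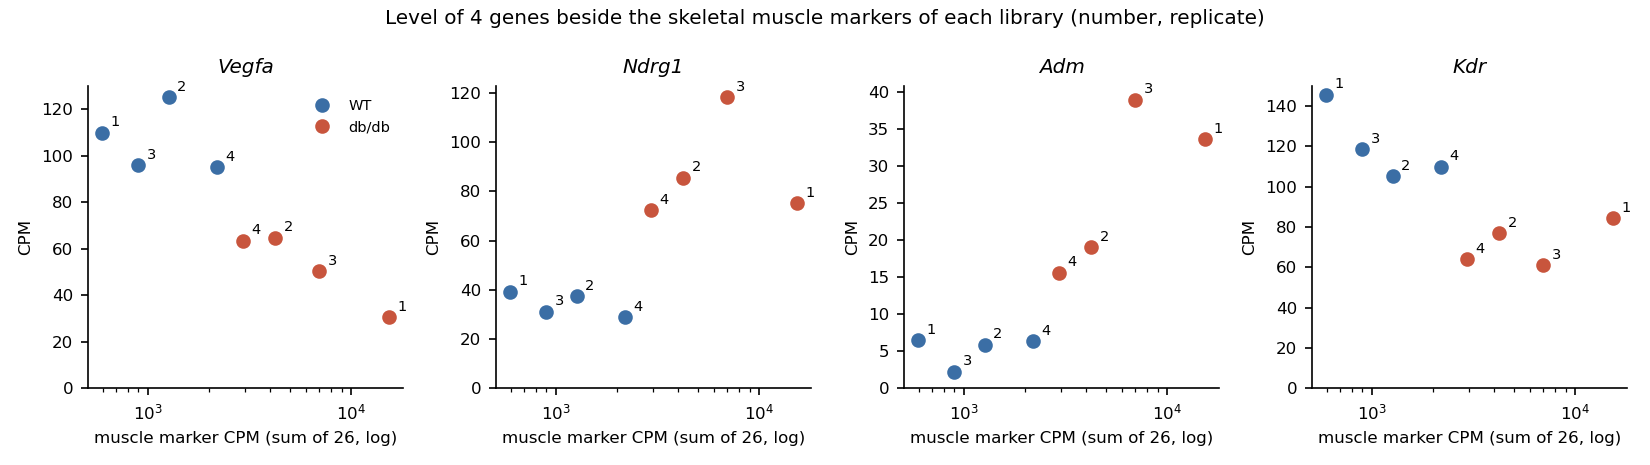
CPM of Vegfa, Ndrg1, Adm and Kdr (vertical axes) against the summed CPM of 26 skeletal muscle markers (horizontal log axes) in each library, with the replicate number beside each point. All db/db libraries (red) lie to the right of all WT libraries (blue), and db/db replicate 1, at 15362 CPM of muscle markers, has the lowest Vegfa, 30.7 CPM.

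Slc2a1 (GLUT1, the glucose transporter induced by hypoxia; ENSMUSG00000028645, chromosome 4, 119108711 to 119137983) was scarce. Its WT libraries held 4.86, 6.75, 9.39 and 4.67 CPM and its db/db libraries 3.61, 2.86, 2.66 and 2.98 CPM, which rest on 11 to 25 and 6 to 12 counts. The genotypes did not overlap, and the fall was 2.10-fold (log2 change −1.07, SE 0.38, n = 4 each; edgeR adjusted p = 0.0448). It passed in 5 of 16 alternative fits, with an adjusted p from 0.0397 to 0.428, and not with DESeq2 (0.0869). It was lost when any one library other than WT replicates 1 and 4 was left out (0.0659 to 0.155). Slc2a1 shares exon sequence with Gm12868 on the other strand and is uncertain for that reason too.

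Ndrg1 and Adm stood out on the rising side. Ndrg1 (ENSMUSG00000005125, chromosome 15, 66929318 to 66969640), a stress-responsive gene widely used as a hypoxia marker, had 39.3, 37.6, 31.2 and 28.9 CPM in WT and 75.2, 85.6, 118.4 and 72.5 CPM in db/db. The lowest db/db library was well above the highest WT library. Its mean rose from 34.2 ± 4.98 to 87.9 ± 21.1 CPM (SD of 4 mice each), 2.56-fold (log2 change 1.36, SE 0.18; edgeR adjusted p = 2.54e-05). It passed in 17 of 17 alternative fits, that with the muscle score included (log2 change 1.42, edgeR adjusted p = 0.00579). Ndrg1 overlaps exons of Gm17035 and Gm2895 on the other strand, so its counts are uncertain.

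Adm (adrenomedullin, a vasodilator peptide that also acts on endothelium; ENSMUSG00000030790, chromosome 7, 110627661 to 110629820) had 6.47, 5.91, 2.25 and 6.37 CPM in WT and 33.7, 19.1, 39.0 and 15.6 CPM in db/db. All db/db libraries lay above all WT libraries, and they spread more than 2-fold among themselves. These levels rest on 6 to 16 counts in WT and 42 to 112 counts in db/db. With at least 10 counts required in every sample Adm was not tested. The mean rose from 5.25 ± 2.01 to 26.9 ± 11.3 CPM (SD of 4 mice each), 5.10-fold (log2 change 2.35, SE 0.35; edgeR adjusted p = 7.86e-05). With the muscle score as a covariate it was 1.41 higher on the log2 scale and was not called (edgeR adjusted p = 0.0961). The macrophage markers also rose, with 12 of the 14 tested higher and 0 lower in db/db, beside 15.8% and 11.9% of all genes tested. The part of these markers in the rise of Adm was not tested.

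Ddit4 (REDD1, an inhibitor of mTORC1 signalling that also responds to glucocorticoids and fasting; ENSMUSG00000020108, chromosome 10, 59949669 to 59951834) varied more within than between genotypes. Its WT libraries had 72.8, 151.5, 101.1 and 126.1 CPM and its db/db libraries 59.0, 71.6, 80.2 and 129.5 CPM. Of these, db/db replicate 4 lay in the upper part of the WT range and the other 3 in or below its lower part. The log2 change was −0.41 (SE 0.23, n = 4 each; edgeR adjusted p = 0.202). Without db/db replicate 4 it was −0.69 (edgeR adjusted p = 0.0216), without WT replicate 2 it was −0.25 (0.504) and without db/db replicate 1 it was −0.27 (0.412). With all genes of at least 1 count it was −0.45 (0.0294), and with the muscle score as a covariate −0.22 (0.786). Ddit4 passed in 2 of 17 alternative fits. Ankrd37, a HIF target of the ankyrin repeat family (ENSMUSG00000050914, chromosome 8, 45996902 to 46005707), was at the limit of detection, with 1, 1, 3 and 1 counts in WT and 1, 0, 0 and 0 counts in db/db, did not pass the filter, and allows no comparison.

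The rest of the HIF pathway was read from 5 hand-written lists, which with the 10 genes hold 108 genes, of which 83 were tested, 13 rose and 13 fell. That is 31.3% called, or 28.4% of the 74 tested without the 10 genes, beside 27.7% of all genes. Of the 17 tested genes of the HIF machinery, 1 rose, Egln1, and 1 fell, with a median log2 change of 0.08 (−0.01 without the 4 of the 10 genes in it). The gene that fell was Arnt, the partner of both alpha subunits, at 26.3, 21.9, 27.1 and 25.5 CPM in WT and 14.1, 18.8, 13.3 and 14.9 CPM in db/db (log2 change −0.72, SE 0.20, n = 4 each; edgeR adjusted p = 0.0122). No db/db value reached the WT range. With the muscle score as a covariate it was not called (log2 change −0.54, edgeR adjusted p = 0.434).

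**Figure D3:**
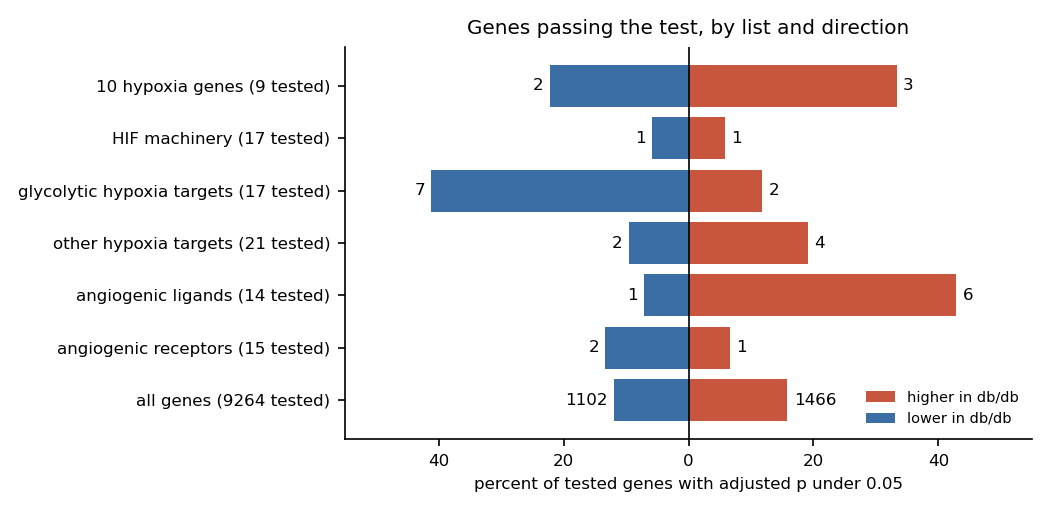
Percent of the tested genes of each list with an edgeR adjusted p under 0.05 (horizontal axis), split into genes higher (red, right) and lower (blue, left) in db/db, with the number of genes at the end of each bar. Glycolytic targets lean to the left (7 lower, 2 higher) and angiogenic ligands to the right (6 higher, 1 lower), beside 1466 higher and 1102 lower of all 9264 genes.

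Of the 17 tested glycolytic targets, 7 fell and 2 rose, while 11.9% of all genes tested were lower and 15.8% higher. That is 52.9% called, beside 27.7% of all genes. The count of fallers was 3 without WT replicate 2 or db/db replicate 3 and 4 without WT replicate 4 or db/db replicate 2. In all 8 libraries the median log2 change was −0.33 against 0.01 over all genes. Pfkfb3, whose product makes the main activator of phosphofructokinase, fell from 413.3 ± 41.1 to 226.5 ± 14.2 CPM (SD of 4 mice each; log2 change −0.87, SE 0.13, edgeR adjusted p = 6.15e-05), with 386.1 to 473.5 CPM in WT and 210.6 to 239.9 CPM in db/db. Gpi1, glucose-6-phosphate isomerase, fell from 687 ± 164 to 354 ± 53.4 CPM (log2 change −0.96, edgeR adjusted p = 0.000447). Pdk1, the kinase that inhibits pyruvate dehydrogenase, fell from 71.6 ± 9.88 to 41.7 ± 6.01 CPM (log2 change −0.78, edgeR adjusted p = 0.00126). Triosephosphate isomerase, Tpi1, went the other way, from 109.5 ± 10.9 to 164.2 ± 20.5 CPM (log2 change 0.58, edgeR adjusted p = 0.00354). The genotypes did not overlap in 6 of the 17 genes, beside 28.1% of all genes tested. Among the 6 were Pfkfb3, Gpi1, Pdk1 and Slc2a1, which fell, and Tpi1, which rose. Outside the naming rule and chosen after their values were seen, Ldha, Hk2 and Aldoa also fell and Hk1 also rose, by 0.43, 0.68, 0.50 and 0.84 on the log2 scale. Gpi1, Tpi1, Aldoa and Hk1 share exon sequence with genes on the other strand, and several glycolytic genes have processed pseudogenes, so these counts are uncertain. With the muscle score as a covariate, 1 gene of this list fell and 0 rose at the threshold, the call of Pfkfb3 remaining. The log2 changes in that fit were −1.09 for Slc2a1, −0.87 for Gpi1, −0.77 for Pdk1 and 0.57 for Tpi1, close to those without the covariate, and the SEs were larger.

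Of the 21 other hypoxia targets tested, 4 rose, 2 fell and 15 did not pass, with a median log2 change of −0.05. That is 28.6% called, close to the 27.7% of all genes. Beside Ndrg1 and Adm the risers included Lox, whose product, the collagen cross-linking enzyme lysyl oxidase, also belongs to matrix and wound responses. Lox rose from 36.3 ± 11.4 to 149.7 ± 37.3 CPM (SD of 4 mice each; log2 change 2.05, edgeR adjusted p = 1.59e-06), and overlaps AC161119.1 on the other strand. The fallers were Bnip3, a HIF target that marks mitochondria for removal, from 820.2 ± 99.1 to 417 ± 34.4 CPM (log2 change −0.97, edgeR adjusted p = 3.15e-05), and the lipoprotein receptor gene Vldlr, from 127.2 ± 12.3 to 90.8 ± 8.65 CPM (log2 change −0.49, edgeR adjusted p = 0.0108). With the muscle score as a covariate Bnip3 remained called (edgeR adjusted p = 0.0176) and Vldlr was not (0.207), though its log2 change was −0.53, with an SE of 0.24 in place of 0.13. Bnip3 overlaps Gm45507 on the other strand and is uncertain. Targets such as Hilpda, Higd1a, Bnip3l and Hmox1, chosen after their values were seen, had log2 changes of −0.33, 0.09, 0.02 and −0.25 and did not pass. Car12 and Epo had 0 counts in all 8 libraries, where 3 counts are taken as detectable.

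**Figure D4:**
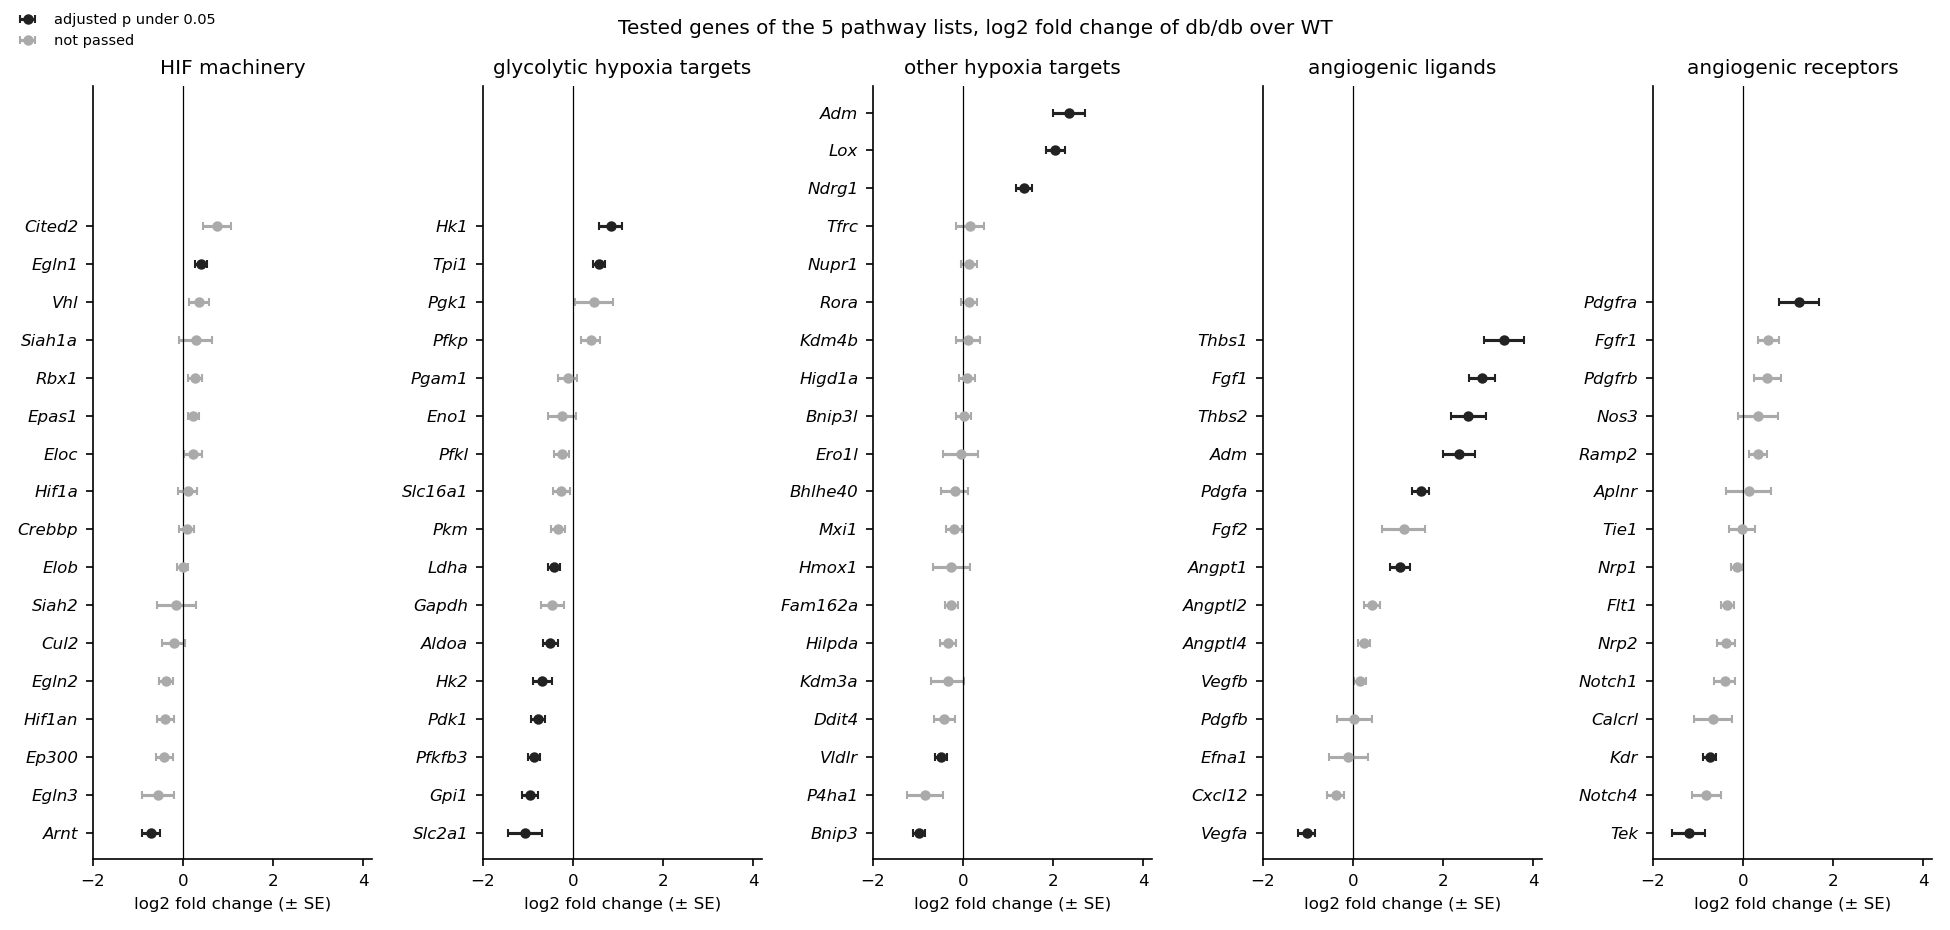
Log2 change of db/db over WT with its SE (horizontal axes) for tested genes of the 5 lists, ordered within a list, with genes at an edgeR adjusted p under 0.05 in black and the others in grey. Vegfa, at −1.03, is the lowest of the angiogenic ligands, and Thbs1, at 3.36, is the highest of all genes shown.

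Vegfa was the only one of the 14 tested angiogenic ligands to fall, while 6 rose and 7 did not pass. That is 50.0% called, beside 27.7% of all genes tested, of which 15.8% were higher and 11.9% lower. Some of the risers passed the filter through their db/db libraries, as Thbs1 with 2 to 5 counts in WT did, and with at least 10 counts required in every sample 2 of the 7 ligands left rose. Those that rose were Adm, Fgf1, Pdgfa, Thbs1, Thbs2 and Angpt1, of which the thrombospondins encoded by Thbs1 and Thbs2 are known as inhibitors of vessel growth. Fgf1, a fibroblast growth factor, had 7.28, 4.22, 1.88 and 4.24 CPM in WT and 35.5, 27.4, 32.8 and 32.4 CPM in db/db (log2 change 2.86, SE 0.29, n = 4 each; edgeR adjusted p = 1.41e-06). Every db/db library exceeded the WT range several times over. Pdgfa, a growth factor for mesenchymal cells, rose from 20.4 ± 4.97 to 58.0 ± 5.55 CPM (SD of 4 mice each; 2.83-fold, edgeR adjusted p = 1.32e-05). Thbs1 and Thbs2 rose from 1.54 ± 0.675 to 15.9 ± 6.85 CPM and from 4.15 ± 2.79 to 25.1 ± 10.6 CPM (log2 changes 3.36 and 2.56, edgeR adjusted p = 2.43e-05 and 0.000104). In the fit with the muscle score 4 ligands rose, and Thbs2 was not among them (log2 change 1.63, edgeR adjusted p = 0.103). Thbs1 and Pdgfa overlap other genes on the opposite strand. Vegfb, the paralogue of Vegfa linked to fatty acid handling and chosen after its values were seen, had 229.9 CPM in WT and 256.1 CPM in db/db (log2 change 0.15, SE 0.14, n = 4 each; edgeR adjusted p = 0.437).

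Among the receptors of these ligands, 2 of 15 tested genes fell and 1 rose, with a median log2 change of −0.14. These 3 of 15 stand beside 27.7% called over all genes. Kdr (VEGFR2, the main signalling receptor for VEGFA) had 145.7, 105.1, 118.7 and 109.9 CPM in WT and 84.2, 77.0, 61.2 and 64.0 CPM in db/db, without overlap. It fell 1.67-fold (log2 change −0.74, SE 0.15, n = 4 each; edgeR adjusted p = 0.00127). Kdr was not called with the muscle score as a covariate (log2 change −0.72, edgeR adjusted p = 0.114). The ratio of Vegfa to Kdr within a library was −0.16 ± 0.29 in WT and −0.49 ± 0.64 in db/db on the log2 scale (SD of 4 mice each), a difference of −0.32 within the replicate spread (exact two-sided permutation test, p = 0.486, adjusted over 2 ratios 0.486). Without db/db replicate 1 the difference was −0.01. The ratio of that library was −1.43, while those of the other db/db libraries lay between −0.27 and −0.01. A difference between the falls of ligand and receptor transcript was not detectable at this replication.

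Tek (the angiopoietin receptor TIE2) fell from 10.2 ± 4.90 to 4.36 ± 0.802 CPM (SD of 4 mice each; log2 change −1.20, edgeR adjusted p = 0.021), a call that was lost without WT replicate 4, whose 17.4 CPM was the highest value (edgeR adjusted p = 0.125), and without db/db replicate 2 (0.0545). Pdgfra, a receptor of fibroblasts and progenitors, rose from 5.29 ± 3.56 to 12.5 ± 4.05 CPM (log2 change 1.24, edgeR adjusted p = 0.0457), did not pass with DESeq2 (0.0597) or without WT replicate 1 or 4 or db/db replicate 1, 2 or 3 (0.0504 to 0.136), and overlaps several annotated genes. Pdgfra had 12, 18, 22 and 1 counts in WT replicates 1 to 4, so that WT replicate 4 lay below the floor of 3 counts. Kdr and Tek are also among the endothelial markers. Of the 15 tested, 3 fell, these 2 and Emcn, which was named after its values were seen, and 0 rose. That is 3 of 15 called, beside 27.7% of all genes, with a median log2 change of −0.35, and Sox18 had 0 counts in every library. The 8 mural cell markers summed to between 218 and 242 CPM in WT and between 288 and 357 CPM in db/db. The part of cell numbers in the fall of Kdr and Tek was not tested.

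The profiles most like that of Vegfa over the 8 libraries, by the root-mean-square difference of log2 CPM after each gene was centred on its own mean, belonged to Sirt3, Nampt and Bri3bp among 4526 genes with a mean of at least 20 CPM. The differences were 0.11, 0.15 and 0.18 on the log2 scale, while the centred profile of Vegfa itself had an SD of 0.62. Sirt3, a mitochondrial deacetylase, went from a mean of 47.0 CPM in WT to 23.9 CPM in db/db, and Nampt, which makes a precursor of NAD, from 192.7 to 101.3 CPM. All these profiles share the same 8 libraries, the same genotype contrast and the same muscle RNA.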

How the data were processed

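BAT of 4 WT and 4 db/db mice was analysed, with genotype and replicate number taken from the sample titles. The authors used single-end libraries of a commercial mRNA-seq service, and deposited raw counts per Ensembl gene. The paper's methods name bbduk, STAR (mm10) and HTSeq-count, while the submitters' processing notes name Trimmomatic, HISAT2 and DESeq2 with GRCm38 and mm10. Use of strand and of molecular identifiers is not given in the sources used here, so PCR copies may be counted and overlapping genes are uncertain. The deposited log2 normalized values and the sample sheet were not used here.

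Of 31053 genes, 31011 matched GENCODE M21. Genes were filtered with filterByExpr (minimum count 10, minimum total 15), which left 9264, scaled by TMM and tested with edgeR 4.0.16 in R 4.3.3 (glmQLFTest, genotype only, Benjamini-Hochberg over all genes). SEs come from the F statistic. Log2 CPM used a prior count of 2. Replicates are different animals and their libraries differed beyond counting error (the lowest chi-square over its degrees of freedom was 3.99). The members and the lists were chosen with earlier results of these data known. Named genes are the 10 genes, up to 4 further genes of each pathway list with the smallest adjusted p under 0.05, and the 3 profiles nearest to Vegfa. One gene that this rule names among the other hypoxia targets is counted but not reported here. Alternatives were DESeq2 1.42.0, limma-voom (limma 3.58.1), 3 other scalings, 2 other filters, the muscle score, the replicate block and each sample left out. The procedure was tested on simulated data.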

Additional observations from a re-analysis of the deposited data

Results flagged for a closer look

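The genes given by the naming rule and both ratios were examined in the 4 libraries of each genotype, 62 sets in all, for a value separated from its neighbours by more than Dixon's limit for 4 samples. There were 4 such values, and chance alone gives about 1 set in 20, or 3.1 sets. The Adm level of WT replicate 3 was 2.25 CPM, on 6 counts, while the other WT libraries had 5.91 to 6.47 CPM. Ankrd37 reached 1.13 CPM in WT replicate 3, on 3 counts, and 0.301 CPM in db/db replicate 1, on 1 count, where the other db/db libraries had 0. Nampt, a profile near to that of Vegfa, had 67.1 CPM in db/db replicate 1, while the remaining db/db libraries had 111.7 to 113.5 CPM, and that library also had the most skeletal muscle marker RNA and the least Vegfa.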

How the results depend on the processing

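With 2374079 to 3240074 counts a library, genes below some 10 CPM, such as Slc2a1, Egln3, Ankrd37 and, in WT, Adm, rest on few counts. Muscle RNA was higher in every db/db library than in any WT library, so the fit with the muscle score has little to separate them by. In that fit 662 genes differed in place of 2568, 645 of them shared, 1 of the 10 genes rose and 0 fell, 0 genes of the HIF machinery rose and 0 fell, 0 glycolytic targets rose and 1 fell, 1 other hypoxia target fell, 4 angiogenic ligands rose and 0 fell, and 0 receptors rose and 1, Tek, fell. With DESeq2, 1 of the 10 genes fell, and 0 genes of the HIF machinery and 0 receptors rose. With limma-voom, 1 of the 10 genes fell. With all genes of at least 1 count, 4 glycolytic targets rose, 4 other targets fell and 3 receptors rose. With at least 10 counts in every sample, which removes scarce genes, 1 of the 10 genes fell, 2 other targets, 2 ligands and 0 receptors rose. Scaling to library totals left 0 receptors rising and upper-quartile scaling 0 genes of the HIF machinery. Except for the filters, which change the genes tested, the cause was not tested.

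Replicate numbers are shared between genotypes, but same-numbered mice are different animals and their deviations correlated at −0.08 to 0.05, so the numbers do not pair them. With the replicate block 2557 genes differed, 1 of the 10 genes fell, 2 genes of the HIF machinery and 2 receptors rose, and the ratios of Hif1a to Epas1 and Vegfa to Kdr differed by −0.11 and −0.32.

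With each library left out in turn, 2236 to 2483 genes differed, 2 to 3 of the 10 genes rose and 1 to 2 fell, 0 to 1 genes of the HIF machinery rose and 1 to 2 fell, 1 to 3 glycolytic targets rose and 3 to 8 fell, 4 to 5 other targets rose and 2 to 3 fell, 6 to 7 ligands rose and 1 fell, and 0 to 2 receptors rose and 1 to 3 fell. The ratio of Hif1a to Epas1 differed by −0.21 to −0.0064 and that of Vegfa to Kdr by −0.49 to −0.01. The log2 change of Hif1a ran from −0.0036, without WT replicate 4, where it changed sign, to 0.16, without WT replicate 3.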
